A study of Mus musculus with 6 samples.

Results

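Adhesion tissue taken at day 7 after talc was compared with adhesion tissue taken at day 1. Talc is a mineral powder that irritates serous linings, and here a suspension of it in saline was injected into the pericardial cavity of male C57BL/6 mice aged 8 weeks through the diaphragm. Tissue sampled as pericardial adhesion was dissected away from the myocardium. A formed adhesion is scar that ties the heart surface to the sac around it. The study saw adhesion scores rise markedly on day 3 and collagen increase after day 4. A day 1 sample comes before both, so it is not yet such a scar. The comparison uses 2 of the 6 samples of the series, the adhesion samples titled for day 7 and day 1, and each is a single library. The other 4 are adhesion tissue at day 3 and heart tissue at days 0, 3 and 7. The earlier sample is day 1 in its title and stage label and day 0 in its source name. A figure of the study likewise names days 0, 3 and 7 for adhesion tissue. Day 1 is used here. On that reading both adhesion samples had received talc, and neither is an untouched pericardium. The sources used here do not say how many mice gave each sample. The comparison shows which genes set the later adhesion apart from the first day after the irritant.

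Healing of an irritated serous cavity is usually described in overlapping phases. Neutrophils and acute cytokines come first, monocytes turn into macrophages that engulf debris and foreign particles, and fibroblasts then lay down collagen and bind the surfaces together. Macrophages that cannot digest a particle can fuse into multinucleated giant cells, which share enzymes with the osteoclasts of bone.

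The day 7 library held 1844565 reads in genes and the day 1 library 1790137. A read was found in either library for 17119 of the 23420 genes, and 10670 genes had at least 30 reads over both. For these the ratio of the deposited values, day 7 over day 1, was taken, with an exact 95% interval of the recovered reads in parentheses. The interval covers counting error only. With 1 library a day there is no check against replicates, and no p-value is given. A gene is called higher or lower here when its ratio was past 3-fold, and where a library held 0 reads the fold was taken against a floor of 3 reads in that library and is written as at least that fold. The strand setting of the counting is not stated, so reads of genes that overlap on opposite strands cannot be told apart. In whole tissue, fewer cells of a type and less RNA per cell cannot be told apart either.

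At day 7, 483 of the 10670 genes (4.53%) were over 3-fold higher and 407 (3.81%) over 3-fold lower. The interval lay wholly past 3-fold for 239 and 161 of them. It excluded a ratio of 1 for all 483 and all 407. The minimum of 30 reads and the 3-fold threshold already ensure this, so it adds no support to the calls. The median log2 ratio over all 10670 genes was -0.08, and 80.6% of them lay within 2-fold. Nearest to the threshold, Cpxm1 (290 reads at day 7 and 96 at day 1, 3.0-fold higher) was just past it with Mypn (57 and 170 reads, 3.0-fold lower), and Sod2 (284 and 846 reads, 3.0-fold lower) just inside it with Pde4b (142 and 421 reads, 2.98-fold lower).

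Reads of genes typical of neighbouring tissue differed between the adhesion samples, and these genes were set apart. The 76 genes of the skeletal muscle, muscle regeneration and heart muscle lists summed to 37376 reads at day 7 and 84295 at day 1, and to 1925 in the day 3 adhesion library. Genes of the lung, airway, thymus, red cell and ribosomal RNA lists were set apart with them. Outside all of these lists, 470 of 10566 genes (4.45%) were higher at day 7 and 373 (3.53%) lower. The amount of neighbouring tissue was not measured, and its part in the other results was not tested. Left out together, the 2796 genes with at least 30 reads whose level was highest in the day 0 heart library held 37 of the genes called higher and 69 of those called lower.

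**Figure D1:**
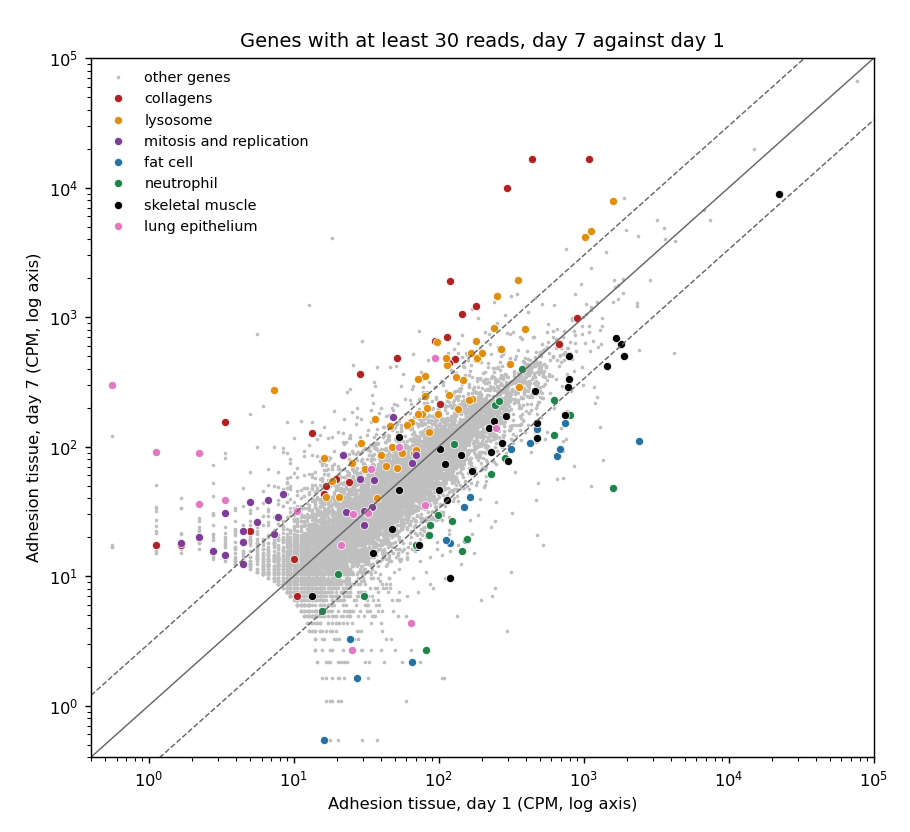
Level of each gene with at least 30 reads in adhesion tissue at day 7 (vertical) against day 1 (horizontal), in CPM (each library's reads set to the same total) on log axes. The solid line marks equal levels and the dashed lines 3-fold. Genes with 0 reads in either library are not drawn. Most collagen and lysosome genes lie above the diagonal, fat cell and most neutrophil genes below it, and lung epithelium genes on both sides.

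Among the genes outside the lists set apart, those that stood farthest above 3-fold at day 7 were macrophage, bone-resorbing cell and matrix genes. Gpnmb, a glycoprotein of lipid-laden and phagocytic macrophages, had 7559 reads at day 7 against 33 at day 1, 228-fold higher (162 to 331). Mamdc2, which encodes a secreted matrix protein, had 223 reads at day 7 and 1 at day 1 (222-fold, 39.4 to 8793). Anpep, a surface aminopeptidase, had 1213 reads at day 7 and 53 at day 1 (22.7-fold, 17.3 to 30.5). Collagen genes made up 5 of the 15 farthest above (Col24a1, Col1a1, Col1a2, Col5a1 and Col3a1). On the lower side stood acute-phase, chemokine, fat and epithelial genes. Ccl24, which attracts eosinophils, had 7 reads at day 7 and 529 at day 1, 76.0-fold lower (36.6 to 190). Lcn2, an iron-carrier-binding protein of neutrophil granules and of inflamed epithelium and fat, had 88 reads at day 7 and 2874 at day 1 (32.9-fold lower, 26.6 to 41.1). Serpina3m, a protease inhibitor of the acute phase, had 2 and 107 reads at days 7 and 1, and Fcgbp, a mucus protein, had 0 and 92 reads, at least 30.9-fold lower. Gm5105, a predicted gene, had 1 and 67 reads. It had 0 in the day 3 library, where muscle genes were scarce, and 34 in the day 0 heart library. The part of muscle in Gm5105 was not tested. Krt17, a keratin of epithelia, had 0 reads at day 7 and 51 at day 1, at least 17.1-fold lower.

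**Figure D2:**
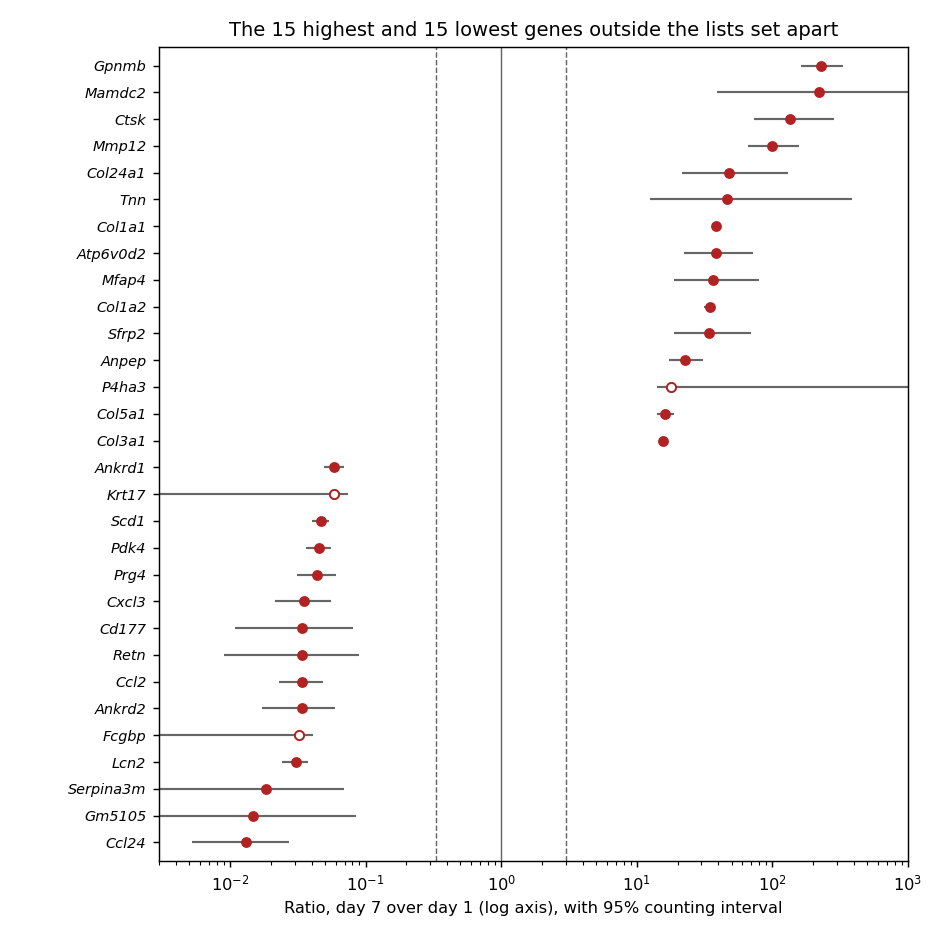
Ratio of day 7 over day 1 on a log axis for the 15 genes farthest above and the 15 farthest below 1 by the nearer bound of the interval, outside the lists set apart. Bars are 95% counting intervals, open circles are bounds set by the floor of 3 reads, and dashed lines mark 3-fold. The ratios extend from Gpnmb (228-fold higher) to Ccl24 (76.0-fold lower), and bars that reach an edge of the plot continue past it.

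Collagen chain genes formed the group that stood highest at day 7. Of 26 with at least 30 reads, 18 were higher and 0 lower, with a median log2 ratio of 2.72. Together the 44 listed genes had 97654 reads at day 7 against 8352 at day 1, 11.6-fold higher (11.4 to 11.9). Col1a1, a chain of the main collagen of scar, had 30606 reads at day 7 and 788 at day 1, with 18262 in the day 3 library between them (38.6-fold over day 1, 36.0 to 41.5). Its partner chain Col1a2 had 18420 reads at day 7 and 532 at day 1 (34.4-fold, 31.6 to 37.6). Col3a1, the collagen of early granulation tissue, had 30652 reads at day 7 and 1942 at day 1, a smaller 15.7-fold difference (15 to 16.4). Per kilobase of exon, the level of Col3a1 was 0.846 times that of Col1a1 at day 7 (0.832 to 0.859) and 2.08 times it at day 1 (1.91 to 2.26). The level of Col1a1 per kilobase was 1.82 times that of Col1a2 at day 7 (1.79 to 1.85) and 1.62 times it at day 1 (1.45 to 1.81). Col5a1, which nucleates collagen fibrils, had 3511 and 215 reads at days 7 and 1 (16.2-fold, 14.1 to 18.7), and the fibril collagen Col24a1 had 288 and 6. The basement membrane chains stood apart within the list: Col4a1 had 1834 reads at day 7 and 1621 at day 1, and Col4a2 had 1143 and 1219. These last 2 genes, with ratios within 3-fold, were named after their values had been seen.

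Genes that process collagen were higher less uniformly. Of 28, 8 were higher and 1 lower at day 7, with a median log2 ratio of 1.08. P4ha3, a prolyl hydroxylase subunit that stabilises the collagen helix, had 54 reads at day 7 and 0 at day 1, at least 17.9-fold higher, while its sister P4ha1 had 211 and 246 reads. Pcolce, the enhancer of the protease that trims procollagen, had 364 reads at day 7 and 49 at day 1 (7.38-fold, 5.47 to 10.2). Sparc, a collagen-binding protein that helps fibrils to assemble, had 6168 and 1359 reads at days 7 and 1, 4.51-fold higher. Plod2, a lysyl hydroxylase that prepares crosslinks, had 261 and 74 reads (3.51-fold, 2.70 to 4.60), with exons that overlap a gene on the opposite strand. The crosslinking oxidase Lox (636 and 434 reads) and the collagen chaperone Serpinh1 (1300 and 814 reads) stayed within 3-fold, at 1.46-fold and 1.59-fold. Tgm2, a transglutaminase that crosslinks matrix proteins, was the lower one, with 552 reads at day 7 against 1779 at day 1 (3.24-fold lower, 2.95 to 3.57).

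The other matrix genes split into a larger group that was higher and a smaller one that was lower. Of 49, 19 were higher and 4 lower, with a median log2 ratio of 1.06, and the summed reads of the list were nearly even at 32688 at day 7 and 29673 at day 1. Tnn, a tenascin, had 93 reads at day 7 and 2 at day 1, and Mfap4, a protein of elastic fibres, had 330 and 9 (36.4-fold, 19.0 to 80.4). Aspn, a small proteoglycan that binds collagen, had 165 reads at day 7 and 6 at day 1. Elastin (Eln) had 365 and 85 reads at days 7 and 1, 4.27-fold higher (3.36 to 5.47), and periostin (Postn), a matricellular protein of activated fibroblasts, had 1453 and 130, 11.1-fold higher (9.28 to 13.4). The lower genes were Thbs1, Vcan, Smoc1 and Has1. Thrombospondin 1 (Thbs1), an adhesive protein of platelets and early wounds, had 974 reads at day 7 against 7540 at day 1 (7.79-fold lower, 7.29 to 8.34). Versican (Vcan), a large proteoglycan of provisional matrix, had 537 against 2094 reads (3.92-fold lower, 3.57 to 4.32). Smoc1 had 5 reads at day 7 and 61 at day 1, and the hyaluronan synthase Has1 had 9 and 44. Fibronectin (Fn1), another provisional matrix protein, was almost the same in both libraries, with 12339 reads at day 7 and 12132 at day 1 (1.01-fold, 0.986 to 1.04), and was highest at 19409 reads in the smaller day 3 library. Tenascin C (Tnc) had 751 and 434 reads, 1.72-fold higher.

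Fibroblast genes followed the matrix in part. Of 26, 8 were higher at day 7 and 1 was lower, with a median log2 ratio of 1.09. Fap, a surface protease of activated fibroblasts, had 56 reads at day 7 and 5 at day 1 (11.1-fold, 4.5 to 35.6). Lrrc15, found on matrix-forming myofibroblasts, had 42 reads at day 7 and 0 at day 1, at least 13.9-fold higher. Dermatopontin (Dpt), a marker of fibroblasts in general, had 367 and 72 reads (5.07-fold, 3.93 to 6.62). The lineage receptor Pdgfra had 616 reads at day 7 and 373 at day 1 (1.64-fold, 1.44 to 1.87), and Pi16, found on adventitial fibroblasts, had 70 and 65. These last markers differed by less than Fap and Lrrc15 did. Acta2, the smooth muscle actin of myofibroblasts and vessel walls, had 297 reads at day 7 and 174 at day 1 (1.70-fold, 1.40 to 2.06), and Tagln had 102 and 106. The lower gene was Prg4, which encodes the lubricant lubricin made by cells that line joints and serous cavities, with 38 reads at day 7 against 857 at day 1 (22.7-fold lower, 16.4 to 32.3). Prg4 and Tagln each overlap exons of an opposite-strand gene.

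Of the 9 mesothelial genes, which mark the lining of the pericardial cavity, 2 were lower and 0 higher. The keratins of simple epithelia were these 2: Krt18 had 4 reads at day 7 and 100 at day 1 (25.2-fold lower, 9.52 to 94.1), and Krt8 had 12 and 86 (7.21-fold lower, 3.92 to 14.5). Other epithelia also make both keratins, and airway genes were lower at day 7 as well, but their part in this was not tested. Among defining markers, Msln had 11 reads at day 7 and 27 at day 1 (2.47-fold lower, 1.19 to 5.52), Wt1 had 58 and 40, and Upk3b had 13 in each library, under the minimum of 30.

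Secreted modulators of Wnt signalling stood among the genes with the highest ratios. Of 16 genes of the Wnt and insulin-like growth factor lists, 5 were higher and 1 lower. Sfrp2, a secreted decoy for Wnt ligands, had 379 reads at day 7 and 11 at day 1 (34.2-fold, 18.9 to 69.2), with 303 already in the day 3 library. Its relative Sfrp1 had 293 and 20 reads at days 7 and 1 (14.6-fold, 9.26 to 24.2) and 31 at day 3. Sfrp4 had 39 reads at day 7 and 0 at day 1, at least 12.9-fold higher. Insulin-like growth factor 1 (Igf1) had 535 reads at day 7 against 140 at day 1 (3.80-fold, 3.15 to 4.61), and its binding protein Igfbp3 had 53 against 176 (3.34-fold lower, 2.45 to 4.63). Growth factors and receptors of the TGF-beta and activin pathways differed little, with 1 of 32 higher and 4 lower and a median log2 ratio of -0.51. Over all genes 4.53% were higher and 3.81% lower. Tgfb1, the ligand most often tied to scar formation, had 279 reads at day 7 and 293 at day 1 (1.06-fold lower, 0.894 to 1.25), and the TGF-beta-induced Tgfbi had 892 and 842. The higher gene was Fstl1, a secreted glycoprotein of connective tissue, with 1825 reads at day 7 and 332 at day 1 (5.46-fold, 4.86 to 6.16). On the lower side, the activin subunit gene Inhba had 10 reads against 68, and the activin inhibitor Fst had 13 against 49.

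**Figure D3:**
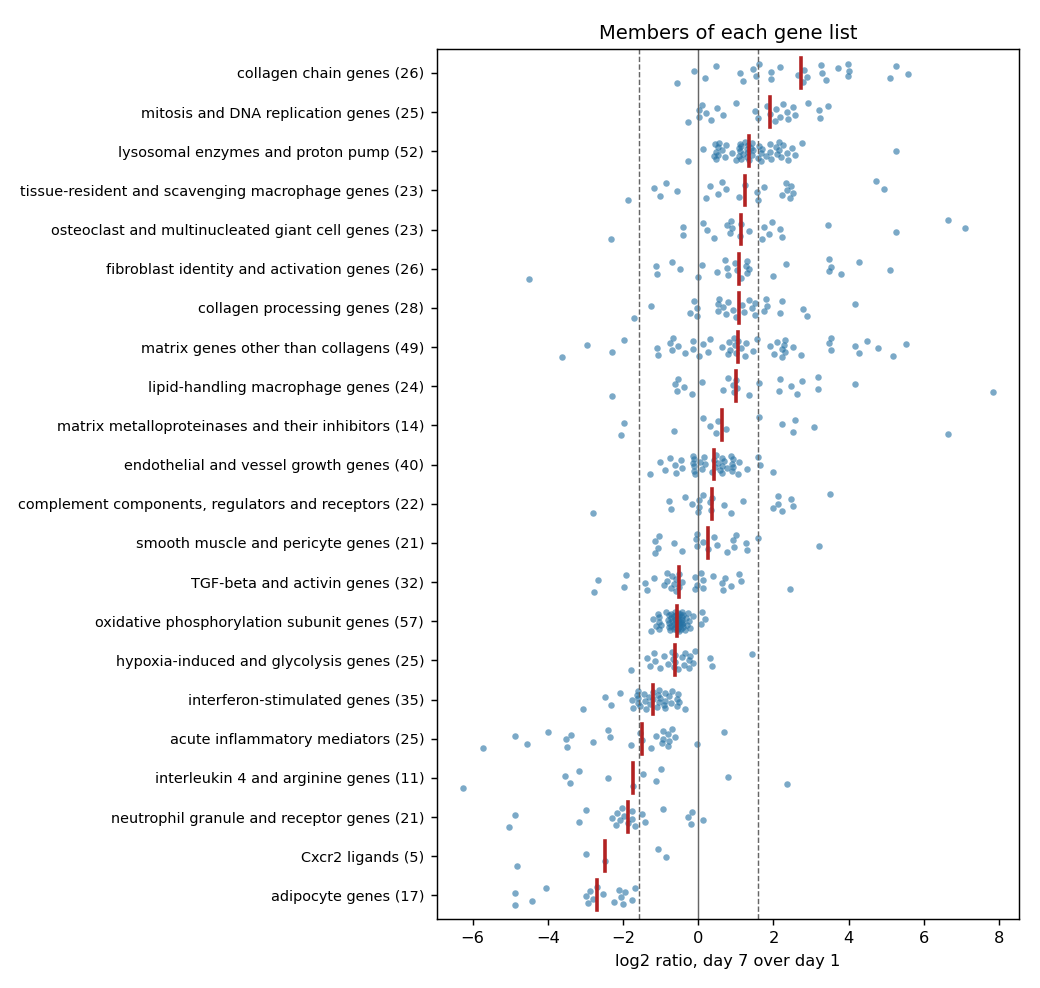
The log2 ratio of day 7 over day 1 for each member with at least 30 reads of 22 gene lists (their number in parentheses). Each point is a gene, red bars are list medians, the solid line marks a ratio of 1 and dashed lines mark 3-fold. Medians extend from 2.72 for collagen chains to -2.70 for adipocyte genes.

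Macrophage genes were higher at day 7 in their lipid-handling and scavenging programmes. Of 24 lipid-handling genes, 10 were higher and 1 lower, with 44314 summed reads at day 7 against 13254 at day 1. Besides Gpnmb, the lipid receptor Trem2 had 287 reads at day 7 and 16 at day 1 (17.8-fold, 10.8 to 31.6), and Pld3, a lysosomal exonuclease, had 765 and 83 (9.16-fold, 7.30 to 11.6). Osteopontin (Spp1), a secreted phosphoprotein, had 15438 and 3422 reads (4.48-fold, 4.32 to 4.65), and apolipoprotein E (Apoe) had 2791 and 625. The lower gene of the list was Fabp4, a fatty acid carrier that fat cells also make in quantity, with 255 reads at day 7 against 1249 at day 1. Of 23 genes of tissue-resident and scavenging macrophages, 10 were higher and 1 lower, with a median log2 ratio of 1.23. Ms4a7 had 134 reads at day 7 and 5 at day 1 (26.6-fold, 11.1 to 83.4), Fcrls had 31 and 1, and the mannose receptor Mrc1 had 696 and 135 (5.12-fold, 4.26 to 6.21). The haptoglobin receptor Cd163 (60 and 108 reads) and the vessel-associated marker Lyve1 (62 and 40 reads) stayed within 3-fold. The lower gene was the scavenger receptor Marco, with 14 reads at day 7 against 51 at day 1. The integrin Itgax, of macrophages and dendritic cells, had 955 reads at day 7 and 120 at day 1 (7.91-fold, 6.54 to 9.64), while the MHC class II gene H2-Ab1 had 321 and 278 (1.15-fold, 0.974 to 1.35).

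Genes of osteoclasts and giant cells were higher in 10 of 23, with 1 lower. Cathepsin K (Ctsk), the collagen-digesting protease of osteoclasts, had 10 reads at day 1, 134 at day 3 and 1367 at day 7, 136-fold higher at day 7 than at day 1 (73.6 to 284). Mmp12, the macrophage elastase, had 2297 reads at day 7 and 23 at day 1 (99.3-fold, 66.0 to 157). Atp6v0d2, a proton pump subunit enriched in osteoclasts, had 502 and 13 reads (38.4-fold, 22.2 to 72.6). Dcstamp, a membrane protein needed for osteoclast and giant cell fusion, had 33 and 3 reads (10.9-fold, 3.43 to 55.7), and the acid phosphatase Acp5 had 396 and 88 (4.47-fold, 3.54 to 5.70). The lower gene was Tnfrsf11b, the soluble decoy that restrains osteoclast formation, with 5 reads at day 7 against 25 at day 1. The enzymes and the fusion gene named here were thus higher at day 7, and the soluble inhibitor was lower.

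Lysosome genes were higher as a broad group. Of 52, 51 had a ratio above 1 and 21 were over 3-fold higher, with 0 lower and a median log2 ratio of 1.35. Cathepsin S (Ctss) had 2709 reads at day 7 and 449 at day 1 (6.00-fold, 5.42 to 6.64), cathepsin L (Ctsl) had 3579 and 627, and cathepsin D (Ctsd) had 7720 and 1821 (4.21-fold, 4.0 to 4.44). The acid lipase Lipa, which frees cholesterol from engulfed lipid, had 1188 and 175 reads (6.75-fold, 5.75 to 7.95). The membrane protein Lamp1, a general marker of lysosomes, had 1496 and 703 reads (2.11-fold, 1.93 to 2.32). The summed reads of the 53 listed genes were 60315 at day 7 and 16897 at day 1, with 36605 at day 3.

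Many lysosome promoters hold an E-box that TFEB, MITF and related factors bind, so the 250 bases before the RefSeq start site were searched on both strands for TCACGTG or TCATGTG. A match was found in 12 of the 59 genes of the lysosome and osteoclast lists that had a matched promoter (20.3%). Among all 16344 genes of the table with a matched promoter, 1023 held one (6.26%). Of the 24 that were over 3-fold higher at day 7, 6 held it (25.0%), namely Atp6v1a, Ctsd, Gla, Glb1, Grn and Mmp12. The promoters of 4 of these are shown from RefSeq on GRCm38.p6, 120 upstream bases each, because they stand before genes of the 2 groups that were higher at day 7, with the matched letters in capitals. Where the letters of a match read TCACGTGA, both strands hold it. They lie at chrX:134601136-134601255 (minus strand), chr9:114400958-114401077 (plus strand), chr16:44139327-44139446 (minus strand) and chr9:7347254-7347373 (plus strand).
Gla: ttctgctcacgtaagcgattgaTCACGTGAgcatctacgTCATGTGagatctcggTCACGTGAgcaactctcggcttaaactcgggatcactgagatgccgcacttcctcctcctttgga
Glb1: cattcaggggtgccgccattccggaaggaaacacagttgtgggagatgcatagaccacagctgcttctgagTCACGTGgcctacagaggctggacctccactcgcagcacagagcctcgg
Atp6v1a: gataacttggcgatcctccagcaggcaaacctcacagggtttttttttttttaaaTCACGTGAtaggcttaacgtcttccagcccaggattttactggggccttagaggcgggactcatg
Mmp12: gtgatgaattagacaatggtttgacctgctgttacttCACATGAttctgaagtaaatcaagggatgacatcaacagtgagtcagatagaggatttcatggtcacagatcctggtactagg
Gla, which encodes the lysosomal galactosidase lost in Fabry disease, holds 5 matches over both strands and had 197 reads at day 7 against 52 at day 1. Glb1, the lysosomal beta-galactosidase, had 152 against 29 reads, and Atp6v1a, the catalytic subunit of the proton pump, had 787 against 203. A match is a description of these letters and not a site shown to be bound.

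Proteases that digest matrix outside the cell differed by member. Of 14 matrix metalloproteinases and inhibitors, 6 were higher and 2 lower. Besides Mmp12, the gelatinase Mmp2 had 775 reads at day 7 and 91 at day 1 (8.46-fold, 6.80 to 10.6), and Mmp14, the membrane-bound enzyme that activates it, had 975 and 207 (4.68-fold, 4.03 to 5.47). Their inhibitor Timp2 had 867 and 151 reads (5.71-fold, 4.80 to 6.83), whereas Timp1 had 361 and 564 (1.57-fold lower, 1.38 to 1.80). The 2 lower genes were those of neutrophil proteases, Mmp8 with 32 reads at day 7 against 124 at day 1, and Mmp25 with 17 against 70. Mmp9, the other gelatinase and also a neutrophil granule enzyme, had 735 reads at day 7 and 669 at day 1 (1.09-fold, 0.982 to 1.21), with 345 in the day 3 library. Of 20 genes of the plasminogen and coagulation systems, 4 were higher and 3 lower. Plau, the urokinase-type activator, had 169 reads at day 7 and 39 at day 1 (4.31-fold, 3.03 to 6.27), and its receptor Plaur had 162 and 342. Thrombomodulin (Thbd), an anticoagulant receptor, had 116 reads at day 7 and 399 at day 1 (3.46-fold lower, 2.81 to 4.29).

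Neutrophil genes were lower at day 7 in 14 of 21, with 0 higher and a median log2 ratio of -1.87. The calcium-binding alarmins S100a8 and S100a9 had 228 and 322 reads at day 7, against 1111 and 1444 at day 1, 4.90-fold and 4.51-fold lower. Cxcr2, the receptor that guides neutrophils out of the blood, had 113 reads at day 7 and 410 at day 1 (3.65-fold lower, 2.96 to 4.54). Il1r2, a decoy receptor for interleukin 1, had 29 and 260 reads, and Cd177, a neutrophil surface protein, had 5 and 146. Of the 5 ligands of Cxcr2, 3 were lower. Cxcl3 had 20 reads at day 7 and 562 at day 1 (28.3-fold lower, 18.1 to 46.6), Cxcl1 had 24 and 133 (5.58-fold lower, 3.59 to 9.01), and the platelet ligand Ppbp had 5 and 39. Cxcl2 (477 and 863 reads) and Cxcl5 (188 and 390 reads) differed by 1.82-fold and 2.09-fold. In the day 3 library S100a8 had 211 reads and Cxcl3 had 78.

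Acute inflammatory mediators were lower in 11 of 25, with 0 higher and a median log2 ratio of -1.50. Interleukin 6 (Il6) had 1 read at day 7 and 53 at day 1 (53.3-fold lower, 9.17 to 2146). Ccl2, the main attractant of monocytes, had 32 and 938 reads (29.5-fold lower, 20.7 to 43.4), and its neighbour Ccl7 had 28 and 316. Oncostatin M (Osm), a cytokine of the interleukin 6 family, had 5 reads at day 7 and 116 at day 1, and the neutrophil growth factor Csf3 had 2 and 32. Tumour necrosis factor (Tnf) had 62 and 146 reads (2.37-fold lower, 1.75 to 3.24), within 3-fold, and the prostaglandin synthase Ptgs2 had 238 and 240. Among the Ccl and other chemokine genes, 8 of 24 were lower and 3 higher. The higher ones were Ccl8 (68 reads at day 7 and 11 at day 1), the fractalkine receptor Cx3cr1 (88 and 16 reads), which marks resident macrophages too, and Cxcl16 (169 and 50 reads), whose exons overlap another gene on the opposite strand. Ccr2, the receptor for Ccl2, had 208 reads at day 7 and 290 at day 1 (1.40-fold lower, 1.17 to 1.68), and Ccl5 had 6 and 17, below the minimum.

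Promoters of Cxcl1, Cxcl3 and Il6 are textbook targets of NF-kB and are shown because these genes were among the lower ones. The NF-kB consensus was searched in the same way. It was found in 5 of the 26 genes of the attractant and acute mediator lists with a matched promoter (19.2%), namely Csf1, Cxcl1, Cxcl2, Cxcl3 and Il6. Among all 16344 genes of the table with a matched promoter, 676 held it (4.14%). Of the 9 with a promoter that were over 3-fold lower, 3 held it (33.3%). The upstream bases from RefSeq on GRCm38.p6 lie at chr5:90891125-90891244 (plus strand), chr5:90785981-90786100 (plus strand) and chr5:30012994-30013113 (plus strand), with the consensus in capitals.
Cxcl1: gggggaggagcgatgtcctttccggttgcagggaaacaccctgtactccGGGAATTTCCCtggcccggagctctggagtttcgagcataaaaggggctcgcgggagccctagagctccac
Cxcl3: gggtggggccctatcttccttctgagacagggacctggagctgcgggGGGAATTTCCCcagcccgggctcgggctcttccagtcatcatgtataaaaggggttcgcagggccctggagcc
Il6: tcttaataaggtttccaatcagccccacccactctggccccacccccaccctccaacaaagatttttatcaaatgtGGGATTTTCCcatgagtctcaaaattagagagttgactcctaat
Cxcl2 holds the consensus as well and differed by less than 3-fold. Nothing about the factor itself was measured.

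Genes that interleukin 4 induces in macrophages were lower in 6 of 11 and higher in 1, counting the arginine enzymes listed with them. Arg1, which splits arginine, had 131 reads at day 7 and 1531 at day 1 (11.8-fold lower, 9.83 to 14.2), and was highest in the day 3 library with 2873. Nos2, the enzyme that makes nitric oxide from the same substrate, had 15 reads at day 7 and 78 at day 1 (5.23-fold lower, 2.99 to 9.79). Chi3l3, a chitinase-like protein, had 97 and 864 reads (8.96-fold lower, 7.26 to 11.2), and Retnla, a secreted resistin-like protein, had 5 and 53. The exception was Mrc1, given above as higher. Among the interferon-stimulated genes all 35 had a ratio below 1, and 10 were over 3-fold lower. Cxcl10, an attractant of T cells, had 13 reads at day 7 and 109 at day 1 (8.44-fold lower, 4.73 to 16.4), and Ifit1, which binds foreign RNA, had 28 and 94 (3.38-fold lower, 2.19 to 5.35). Isg15, a ubiquitin-like modifier, had 27 and 66 reads, and the regulator Irf7 had 86 and 182, both within 3-fold.

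Lymphocyte genes were lower in 6 of 12 and higher in 1. The B cell genes Ms4a1 (13 reads at day 7 and 62 at day 1), Cd79a (12 and 68) and Pax5 (3 and 33) were lower. The B cell genes Cd22 (81 and 78) and Cd79b (18 and 50) stayed within 3-fold, and both were named after their values had been seen. Igj, the joining chain of plasma cells, had 186 and 221 reads (1.2-fold lower, 0.979 to 1.46). Il7r, the interleukin 7 receptor of lymphocytes, had 286 reads at day 7 and 24 at day 1 (11.8-fold, 7.80 to 18.8). The 12 thymocyte genes with at least 30 reads, given below, all had a ratio below 1. Which cells carried the Il7r reads was not measured. The costimulatory ligands Cd80 and Cd86 had 26 reads each at day 7, against 108 and 91 at day 1. Mast cell genes were scarce, with 2 of 9 past the minimum. Hdc, the enzyme that makes histamine, had 152 reads at day 7 and 516 at day 1 (3.42-fold lower, 2.85 to 4.12) and is also made by neutrophils, and the receptor Kit had 50 and 25. The defining proteases were at the edge of detection, with Mcpt4 at 4 and 3 reads, Cma1 at 4 and 11 and Cpa3 at 7 and 5.

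Complement genes were higher in part. Of 22, 7 were higher and 1 lower, with C1qa at 353 reads at day 7 and 61 at day 1 (5.75-fold, 4.37 to 7.68) and C1qb at 546 and 98 (5.54-fold, 4.46 to 6.94). The central component C3 had 5906 and 2566 reads (2.29-fold, 2.18 to 2.40). Component 5 (Hc), also counted as higher, had 57 reads at day 7 and 5 at day 1, with 1 in the day 3 library. In heart tissue Hc had 0 reads at days 0 and 3 and 21 at day 7. The surfactant genes given below were likewise read mainly at day 7 in both tissues, and the part of lung in Hc was not tested. The receptor C5ar1 for this component had 309 and 504 reads at days 7 and 1. The lower gene, Cfd, is the adipsin that fat cells secrete, with 177 reads at day 7 against 1222 at day 1 (6.95-fold lower, 5.93 to 8.18).

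Fat cell genes were lower at day 7 in all 17 with at least 30 reads. Their median log2 ratio was -2.70, and the list summed to 1749 reads at day 7 against 11907 at day 1, with 3954 at day 3 (6.85-fold lower than day 1, 6.51 to 7.21). Not every member is confined to fat. Dgat2, Plin4 and Pnpla2 had 904, 882 and 687 reads in the day 0 heart library, where Adipoq had 2 and Plin1 had 3. Muscle genes were lower at day 7 too, and their part in this was not tested. Stearoyl-CoA desaturase (Scd1), which makes monounsaturated fat, had 204 reads at day 7 and 4322 at day 1 (21.3-fold lower, 18.5 to 24.7). The lipid droplet genes Plin1 (35 and 200 reads) and Cidec (35 and 276 reads) were 5.75-fold and 7.93-fold lower, and the hormones resistin (Retn, 4 and 117 reads) and leptin (Lep, 1 and 29 reads) were 29.4-fold and 29.2-fold lower. Adiponectin (Adipoq), the most specific marker of the list, had 31 reads at day 7 and 127 at day 1 (4.12-fold lower, 2.77 to 6.32), but 152 in the day 3 library. Scd1 had 530 reads and Plin1 had 142 in that library. Adipoq thus had no fewer reads at day 3 than at day 1, while Scd1 had far fewer.

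Stress genes were lower in part, and few metabolic genes passed 3-fold. Of 17 glucocorticoid-induced and stress genes, 6 were lower and 1 higher. The metal-binding metallothioneins Mt1 and Mt2 had 170 and 105 reads at day 7, against 1298 and 1290 at day 1, 7.68-fold and 12.4-fold lower. Fkbp5, a cochaperone of the glucocorticoid receptor, had 90 and 365 reads (4.08-fold lower, 3.23 to 5.20), whereas Tsc22d3, another target of that receptor, had 253 and 204. The kinase Sgk1 was the higher gene, with 717 reads at day 7 and 217 at day 1 (3.28-fold, 2.82 to 3.84). Over all 10670 genes, 5988 had a ratio below 1. Of 25 hypoxia and glycolysis genes, 22 had one, but only Egln3, an oxygen sensor, was over 3-fold lower (30 and 103 reads), a share near that of all genes. The glucose transporter Slc2a1 had 196 and 498 reads (2.56-fold lower, 2.16 to 3.03), and Ldha, which makes lactate, had 775 and 1203. None of 57 oxidative phosphorylation genes passed 3-fold, but 54 had a ratio below 1, with a median log2 ratio of -0.57. Genes of muscle, a tissue rich in mitochondria, were lower in the same direction, and the part of muscle in this was not tested. Of 25 immediate early genes, 1 was higher, Fos (330 and 105 reads, 3.12-fold), and 2 were lower, Ier3 and Egr3. Jun had 314 and 285 reads. Over all genes 4.53% were higher and 3.81% lower, so such few calls say little about the list.

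Cell division genes were higher at day 7 and higher still at day 3. Of 25, 14 were over 3-fold higher and 0 lower, with a median log2 ratio of 1.91. Cdk1, the kinase that starts mitosis, had 33 reads at day 7 and 3 at day 1 (10.9-fold, 3.43 to 55.7), with 56 in the smaller day 3 library. Top2a, which untangles chromosomes, had 160 and 39 reads at days 7 and 1 (4.08-fold, 2.86 to 5.95) and 277 at day 3. Mki67, the usual marker of cycling cells, had 313 and 87 reads (3.58-fold, 2.81 to 4.59) and 578 at day 3. Pcna, the replication clamp, had 158 and 124 reads (1.27-fold, 0.995 to 1.62). The mitotic genes thus differed from day 1 more than this replication gene did, and which cells made them was not measured.

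Vessel genes differed little. Of 40 endothelial and vessel growth genes, 3 were higher and 0 lower, with a median log2 ratio of 0.43. Over all genes 4.53% were higher and 3.81% lower, so 3 calls among 40 say little about the list. The neuropilins Nrp1 and Nrp2, coreceptors for semaphorins and vascular growth factors, had 578 and 701 reads at day 7, against 191 and 225 at day 1, 3.01-fold and 3.10-fold higher. Aplnr, the apelin receptor of sprouting endothelium, had 135 and 34 reads (3.95-fold, 2.69 to 5.93). The endothelial markers Pecam1 (260 and 193 reads) and Kdr (160 and 141 reads) differed by 1.34-fold and 1.13-fold. Of the growth factors, Vegfa had 224 reads at day 7 and 413 at day 1 (1.86-fold lower, 1.57 to 2.19), Vegfb had 67 and 65, Vegfc had 34 and 16 (2.11-fold, 1.13 to 4.10), and Figf had 15 and 7, under the minimum. Angpt2, which loosens vessel walls, had 43 and 40 reads. Of 21 smooth muscle and pericyte genes, 2 were higher and 0 lower, again too few to say much beside the shares of all genes. Rgs5, a pericyte marker, had 227 and 75 reads (3.01-fold, 2.31 to 3.96), and the integrin Itga8 had 28 and 3, with exons shared with a gene on the opposite strand. The contractile genes Myh11 (88 and 65 reads) and Cnn1 (5 and 7 reads, under the minimum) stayed within 3-fold. The intervals of Nrp1, Nrp2, Aplnr, Rgs5 and Itga8 all reach below 3-fold, and Nrp1 shares exon bases with another gene on its strand.

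**Figure D4:**
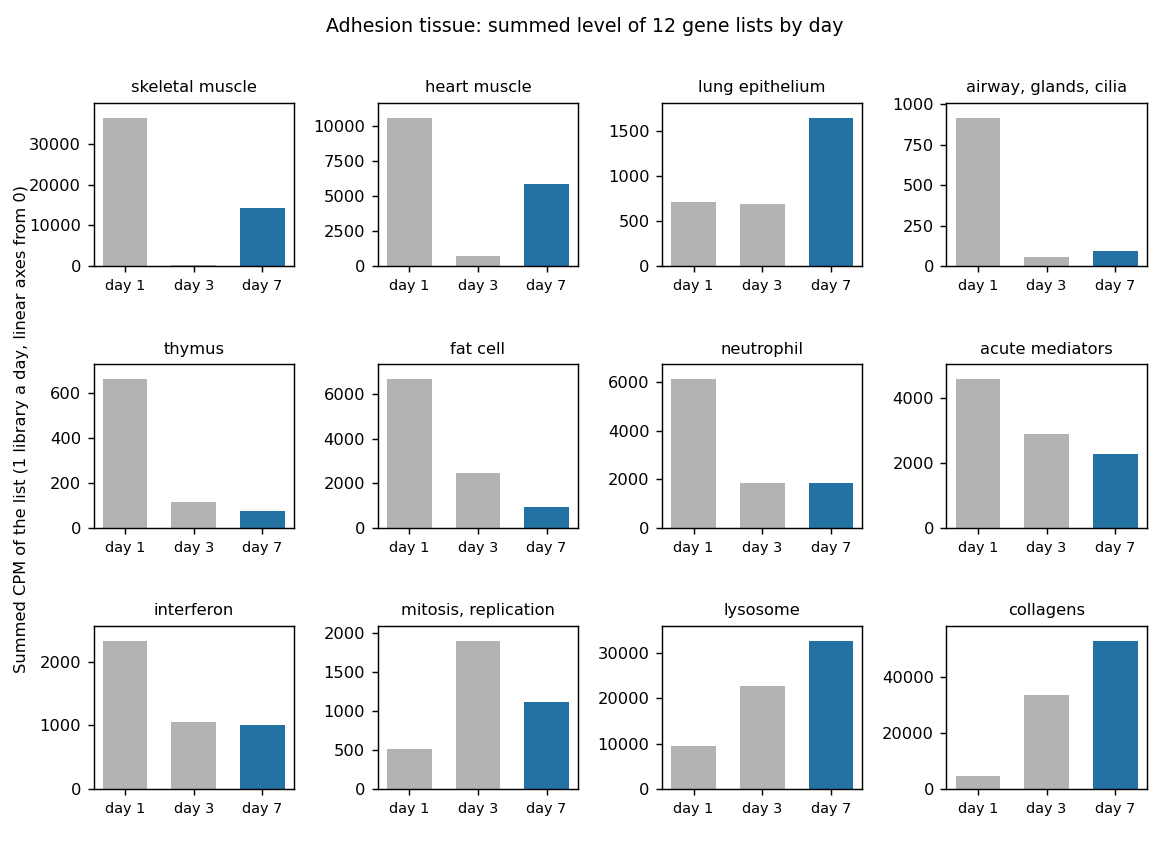
Summed CPM of 12 gene lists in adhesion tissue at days 1, 3 and 7, with 1 library a day, so no error bars are drawn. Axes are linear and start at 0. Collagen and lysosome lists are highest at day 7, the mitosis list is highest at day 3, and both muscle lists are far lower at day 3 than at either other day.

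Muscle genes, set apart, were lower at day 7 but still abundant. Skeletal muscle genes summed to 26461 reads at day 7 against 65021 at day 1 (2.47-fold lower, 2.44 to 2.51), and 8 of 31 were over 3-fold lower, with 0 higher and a median log2 ratio of -1.24. The same list summed to 153350 reads in the day 0 heart library. Part of it is therefore read from heart muscle too, and the sum does not measure skeletal muscle alone. Of the fast myosins, Myh4 had 324 reads at day 7 and 1331 at day 1 (4.13-fold lower, 3.66 to 4.68) and Myh1 had 922 and 3380 (3.69-fold lower, 3.43 to 3.97). The skeletal actin Acta1 had 1151 and 3261 reads, and the muscle creatine kinase Ckm had 214 and 856. In the day 3 library these 4 genes had 1, 0, 3 and 1 reads in the order Myh4, Myh1, Acta1 and Ckm. In the day 0 heart library they had 0, 0, 526 and 1660 in that order. Trim63, a ubiquitin ligase that rises in muscle wasting, had 18 reads at day 7 and 215 at day 1, 12-fold lower (7.42 to 20.7), well beyond the sum of the list.

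Of 8 muscle regeneration genes with at least 30 reads, 2 were higher and 3 lower, with a median log2 ratio of -1.10. Myh3, made in developing and regenerating fibres, had 0 reads at day 1, 0 at day 3 and 40 at day 7, at least 13.3-fold higher than at day 1, and it had 0 reads in the heart library at day 7. Myh8, the perinatal myosin, had 29 reads at day 7 and 0 at day 1, just under the minimum of 30, the differentiation factor Myog had 4 and 0, and the earlier factor Myod1 had 0 and 8. Ncam1, an adhesion molecule of regenerating and denervated fibres and of nerve, had 143 reads at day 7 and 27 at day 1 (5.26-fold, 3.47 to 8.26), with exons that overlap a gene on the opposite strand. Myf6, a muscle regulatory factor of mature fibres, had 3 and 195 reads at days 7 and 1 (65.4-fold lower, 22.1 to 320), and Musk, the receptor kinase of the neuromuscular synapse, had 5 and 72 (14.5-fold lower, 5.93 to 46.0). Outside the muscle lists, Ankrd2 had 353 reads at day 1, 2 at day 3 and 12 at day 7, and Ankrd1 had 2444, 20 and 145 in that order. Both encode ankyrin repeat proteins of muscle that respond to stretch, and both were among the 15 lowest genes. Pdk4, a kinase that shifts muscle and other tissue to fatty acids, had 2001 reads at day 1, 18 at day 3 and 91 at day 7 (22.1-fold lower than day 1, 17.9 to 27.6). These 3 genes followed the muscle genes in being scarce at day 3.

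The heart muscle list differed less than the skeletal muscle list, with 10737 summed reads at day 7 and 18892 at day 1 (1.77-fold lower, 1.73 to 1.81). As given above, heart tissue adds to the skeletal sum as well, so the sums do not separate the kinds of muscle. Of 26, 4 were lower and 0 higher. The atrial and ventricular myosin Myh6 had 3551 reads at day 7 and 5134 at day 1 (1.45-fold lower, 1.39 to 1.52), and the heart troponin Tnni3 had 236 and 401. In the day 3 library Myh6 had 177 reads and Tnni3 had 15. The natriuretic peptide genes were lower by more, with Nppa at 366 and 1117 reads (3.07-fold lower, 2.73 to 3.47) and Nppb at 4 and 59 (14.8-fold lower, 5.5 to 56.3). The small heat shock protein Hspb7 had 239 and 1008 reads (4.24-fold lower, 3.68 to 4.91).

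Lung genes did not move together. Of 18 with at least 30 reads, 9 were higher and 2 lower at day 7. The surfactant protein genes Sftpc, Sftpb and Sftpa1 of alveolar cells had 549, 168 and 120 reads at day 7, against 1, 2 and 0 at day 1. Sftpc was thus 546-fold higher (97.5 to 21590) and Sftpa1 at least 39.8-fold higher. Ager, a marker of flat alveolar cells, had 72 reads at day 7 and 6 at day 1 (11.9-fold, 5.22 to 33.6). Other listed genes that alveolar cells express had reads in both libraries, but also where surfactant reads were nearly absent. In the day 3 adhesion library Napsa, Abca3 and Hopx had 83, 163 and 18 reads, beside 1 surfactant read. In the day 0 heart library they had 0, 62 and 326, beside 0 surfactant reads. Their reads therefore do not by themselves mark alveolar tissue. Nor do those of Lyz1, counted among the higher genes, with 896 reads at day 7 and 170 at day 1. Lyz1 had 597 reads in the day 3 adhesion library and 135 in the day 3 heart library, beside 1 surfactant read in each. It too was named after its values had been seen. The protease gene Napsa had 65 reads at day 7 and 144 at day 1 (2.23-fold lower, 1.65 to 3.04), the lipid transporter Abca3 had 182 and 95, and Hopx had 32 and 38, and these 3 were named after their values had been seen. The club cell gene Scgb1a1 had reads in both libraries, 258 at day 7 and 445 at day 1 (1.74-fold lower, 1.49 to 2.03), and 2 at day 3. Genes of the large airways and their glands lay in the day 1 library, with 8 of 10 lower at day 7 and 1 higher. Bpifa1, a secreted defence protein of the upper airway, had 15 reads at day 7 and 439 at day 1 (29.4-fold lower, 17.7 to 53.1), the mucin Muc5b had 13 and 419, the antimicrobial lectin Reg3g had 3 and 190, and lactoferrin (Ltf), which neutrophils also make, had 15 and 164. The ciliated cell factor Foxj1 had 6 and 11 reads, under the minimum. The day 7 library therefore held surfactant reads and the day 1 library airway gland reads, and the day 3 library had 1 surfactant read and 97 reads of the airway list. Of those 97 reads, 57 were of Tppp3, which also had 36 in the day 0 heart library. Muc5b had 12 of them, and Bpifa1 and Reg3g had 1 each.

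Thymocyte genes were lower in 10 of 12, with 140 summed reads at day 7 against 1183 at day 1 (8.50-fold lower, 7.13 to 10.2) and 186 at day 3. Rag1, which cuts antigen receptor genes in developing lymphocytes, had 9 reads at day 7 and 240 at day 1 (26.8-fold lower, 13.9 to 59.4), Cd8a had 6 and 77, and the T cell kinase Lck had 4 and 75. Some B cell genes, given above, were lower too and others were not, and the part of thymus in them was not tested. Of the red cell genes, Alas2, which starts haem synthesis, had 44 reads at day 7 and 101 at day 1 (2.31-fold lower, 1.61 to 3.37). The globin genes Hba-a1 and Hbb-b1 are listed at 0 in all 6 libraries, whole heart included, and overlap another globin gene on their strand, so these values say nothing of red cell RNA. Beta-s, listed in RefSeq as the beta globin gene Hbb-bs, is in none of the lists and had 350 reads at day 7 and 1376 at day 1 (3.96-fold lower, 3.52 to 4.46), and it was named after its values had been seen. The ribosomal RNA precursor Rn45s had 122893 reads at day 7 and 137626 at day 1, a measure of how much ribosomal RNA the depletion left.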

How the data were processed

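Total RNA depleted of ribosomal RNA was sequenced on a MiSeq. The submitters' processing notes name TopHat, Cufflinks, edgeR and the mm10 genome, with the counting tool, annotation and strand setting not given in the sources used here. The signal that the authors deposited is a read count per gene times 1 factor per library (0.882 at day 7 and 0.888 at day 1), scaled within the 3 adhesion libraries. In both columns 100% of the values were whole multiples of that factor to within 0.1 read, so reads were recovered. The count test of edgeR was not run, since each day has 1 library. Columns with a score and a q-value for each gene, which the authors deposited from their own comparison, were left unused. The deposited length in bases served only for levels per kilobase. Of the gene names 27 had turned into dates and 2 stood more than once.

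Ratios of the deposited values were computed without a pseudocount for genes with at least 30 reads over both libraries, with exact 95% conditional binomial intervals (Python 3.11.15, scipy 1.17.1). The procedure was tested on simulated data. A read weighed 0.994 times as much at day 7 as at day 1. The design named no test, and the fold of 3 follows the study. Of 1048 genes in 40 lists, 1034 were in the table. The genes named were the 15 farthest above and below by the nearer interval bound outside the lists set apart, up to 3 each way per list by the same bound, the defining members of each list, and 10 genes the study measured by quantitative PCR, 252 in all, of which 17 had under 30 reads. Some of these genes are not reported here. A few more are named, after their values were seen, where a small count or a promoter match is spelled out. The comparison, the lists and the rule were chosen with earlier results of these data known. Exons of 9 named genes overlap an opposite-strand gene and those of 4 a gene of their own strand. Alternatives were CPM, edgeR 4.0.16 TMM, DESeq2 1.42.0 size factors, totals without the lists set apart, other minimums, folds and a pseudocount of 1.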

Additional observations from a re-analysis of the deposited data

Results flagged for a closer look

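The surfactant protein genes Sftpa1, Sftpb, Sftpc and Sftpd, given above for adhesion tissue, also had 336 reads in the day 7 heart library, which the comparison does not use. The heart libraries held 0 such reads at day 0 and 1 at day 3. In adhesion tissue the same 4 genes had 5 reads at day 1, 1 at day 3 and 861 at day 7. Both day 7 libraries thus held surfactant reads. No explanation was tested.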

How the results depend on the processing

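No paired analysis was possible because each day has 1 library, and for the same reason no replicate could be left out. Counts of genes higher and lower at day 7 moved by over 1.5 times with the filter and the fold. Over all genes they were 767 and 655 with a minimum of 10 reads, 269 and 200 with 100, 909 and 971 with no filter, 1004 and 1066 at 2-fold, and 239 and 161 where the whole interval lay past 3-fold. Outside the lists set apart the same settings gave 749 and 612, 262 and 178, 891 and 925, 989 and 1009, and 227 and 133. The other scalings, the pseudocount and leaving out genes highest in the day 0 heart kept every count within 1.5 times, from 434 to 524 higher and from 338 to 468 lower over all genes. The lower genes outnumbered the higher ones with no filter, at 2-fold, and with totals that leave out the lists set apart (434 higher and 468 lower, for which the genes of those lists move the scale). Scaling moved the log2 ratio of every gene by -0.09 to 0.08. Of 400 counts per list under the scalings and the pseudocount, 392 stayed within 1.5 times. Genes with fewer than 30 reads limit what this depth can show.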

Other observations

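Several genes in none of the lists also stood far from 1, and these were chosen after their values were seen. Mfge8, a bridge between dying cells and the macrophages that engulf them, had 306 reads at day 1, 138 at day 3 and 2144 at day 7. Lyz2, the lysozyme of myeloid cells, had 7648 and 1778 reads at days 7 and 1 (4.28-fold, 4.06 to 4.5), and Mpeg1, a pore protein of macrophages, had 2603 and 829. Anxa1, which damps neutrophil entry, had 1174 reads at day 7 and 244 at day 1. Mrc2, a receptor through which fibroblasts take up collagen, had 349 and 34 reads (10.2-fold, 7.16 to 15), and Fndc1 had 756 and 67. The imprinted noncoding RNAs Meg3 (538 and 65 reads) and Rian (339 and 45 reads), which lie near each other on chromosome 12, were both higher at day 7.

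On the lower side, the acute-phase genes Lrg1 (103 reads at day 7 and 1177 at day 1) and Hp, which encodes haptoglobin (1026 and 4336 reads), were 11.5-fold and 4.25-fold lower. The myeloid Schlafen genes Slfn4 (213 and 1344 reads) and Slfn1 (39 and 305 reads) were lower with the neutrophil genes. The heat shock protein gene Hspb1 had 838 reads at day 1, 69 at day 3 and 72 at day 7, and the muscle filamin Flnc had 2141, 238 and 402 in that order. Among clock genes, Per3 had 111 reads at day 7 and 31 at day 1, and Dbp had 48 and 12, while Per1 had 359 and 413. The sources used here do not give the hour at which tissue was taken.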
